A study of Danio rerio with 14 samples.

Results

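The H3K27ac landscape of normal zebrafish thymus was described from the peak lists of 3 thymus samples, named thymus 2, thymus 3 and thymus 5. The 3 lists together held 110796 peaks, which were merged wherever they overlapped by at least 1 bp. This gave 71160 regions, and each region was classed by the number of thymus samples, 1 to 3, with a peak in it. The complete series of 7 lists, which also includes 4 tumor lists that were not used here, merges into 98262 regions in the same way. All 3 thymus samples came from Tg(lck:mCherry) control fish, which carry the mCherry reporter under the zebrafish lck promoter and no human IRF4. Thymus was taken at 3 months of age, cells that carried mCherry were isolated by flow cytometry, and chromatin was precipitated with an antibody against H3K27ac. The lck promoter is active in T lineage cells and, per the study, such transgenes are also expressed in B cells, so the sort is not specific to thymocytes. The transgene also carries a copy of that promoter, so its reads and those of the endogenous lck promoter cannot be told apart. How many fish went into a thymus sample is not settled by the labels, and the spread between samples may therefore be partly technical.

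H3K27ac is the acetylation of histone H3 at lysine 27, a mark that acetyltransferases place on nucleosomes at active promoters and active enhancers. Broad stretches of the mark are known from genes that define a cell's identity, such as those of transcription factors and receptors. The thymus is the organ in which lymphoid progenitors commit to the T lineage, rearrange their T cell receptor genes and are selected. A sorted thymus sample can hold thymocytes of several stages, and in such a bulk sample fewer cells with the mark at a site and less of the mark per cell cannot be told apart.

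The 3 lists differed in size before any merging. There were 31647 peaks in thymus 2, 40335 in thymus 3 and 38814 in thymus 5, a mean of 36932 ± 4639.7 (SD, n = 3). These peaks covered 9.06 Mb in thymus 2, 16.5 Mb in thymus 3 and 18.4 Mb in thymus 5, a mean of 14.6 ± 4.92 Mb (SD, n = 3). Thymus 2 therefore stood apart more in covered length than in number of peaks. Peaks were narrow in every list, with a median width of 178 bp in thymus 2, 207 bp in thymus 3 and 217 bp in thymus 5. The lists diverged in their wide peaks, since 4.65% of peaks in thymus 2, 11.1% in thymus 3 and 15.0% in thymus 5 were over 1 kb wide. Those peaks held 23.5% of the covered length in thymus 2, 41.9% in thymus 3 and 51.1% in thymus 5. The concentration of length in each list's own widest peaks was nearly the same throughout, because the widest 10% of peaks held 38.5%, 39.2% and 39.3% of the covered length of thymus 2, 3 and 5. Peak names of thymus 2 and thymus 5 carry the word batch, and those of thymus 3 lack it. What the word marks is not stated. No read totals were used here, so the depth behind these differences is not known, and no counting interval was computed.

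Recurrence between the samples was examined first. Of the 71160 regions, 10908 (15.3%) were called in all 3 thymus samples, 8419 (11.8%) in exactly 2 and 51833 (72.8%) in a single sample. The recurrent class was small in number and large in extent, as it spanned 14.4 Mb, or 54.0% of the merged length of 26.6 Mb. Regions in 2 samples spanned 4.29 Mb (16.1%) and regions in a single sample 7.95 Mb (29.9%). The count of recurrent regions rested on thymus 2 more than on the others: 17123 regions were called in both other samples when thymus 2 was left out, 12188 without thymus 3 and 11958 without thymus 5. Asking that the peaks of a sample cover at least 50% of a region left 3462 regions called in all 3.

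Seen from each sample's list, the recurrent regions held most of the length. They took 71.6% of the covered length of thymus 2, 66.6% of thymus 3 and 67.4% of thymus 5, a mean of 68.6 ± 2.69% (SD, n = 3), and a mean of 31.7% under the 50% rule. By number of peaks the samples differed more, with 49.1% of the peaks of thymus 2, 33.5% of thymus 3 and 31.7% of thymus 5 in recurrent regions. Thymus 2 has the shortest list and the most peaks per recurrent region, and both raise its share. Peaks seen in no other thymus sample made up 43.9% of the list in thymus 2, 47.6% in thymus 3 and 48.2% in thymus 5. They held far less length, namely 22.8% in thymus 2, 17.7% in thymus 3 and 16.1% in thymus 5. Thymus 2 thus had the smallest share of single-sample peaks and the largest share of single-sample length.

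**Figure D1:**
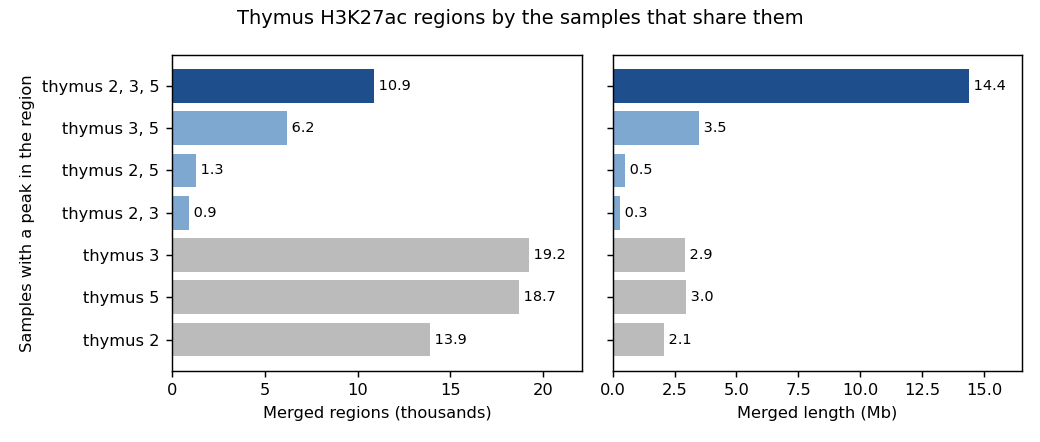
Number of merged regions (left, axis in units of 1000 regions) and their merged length in Mb (right), for each combination of thymus samples with a peak in the region. Bars are counts or sums over all sequences, so they have no error bars. Regions of all 3 samples number 10908 and span 14.4 Mb, while the 3 single-sample classes number 13894 to 19214 and span 2.1 to 3.0 Mb each.

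Regions shared by exactly 2 samples fell mostly to a single pair. Thymus 3 and thymus 5 shared 6214 of the 8419 regions, against 1285 for thymus 2 and thymus 5 and 920 for thymus 2 and thymus 3. The regions of thymus 3 and 5 were also wider, with a median of 481 bp, than those of thymus 2 and 5 (316 bp) and of thymus 2 and 3 (279 bp). The part of batch in this sharing was not tested.

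The plot of regions by combination of samples has the same order as the base pairs shared. The Jaccard index, the length covered in both lists over the length covered in either, was 0.455 for thymus 3 and 5, 0.276 for thymus 2 and 5 and 0.274 for thymus 2 and 3, with a mean of 0.335. Thymus 3 and 5 had 10.9 Mb in common, which was 66.2% of the covered length of thymus 3 and 59.2% of thymus 5. Most of thymus 2 lay within the larger lists: thymus 5 covered 65.6% of its length and thymus 3 covered 60.5%. In the other direction thymus 2 covered 32.3% of the length of thymus 5 and 33.3% of thymus 3. Taking the same number of peaks from each list, the 31647 widest, gave indices of 0.468 for thymus 3 and 5, 0.282 for thymus 2 and 5 and 0.281 for thymus 2 and 3. With peaks of at least 200 bp they were 0.508, 0.291 and 0.297 for the same pairs, so thymus 3 and 5 were the closest pair under both and the order of the other pairs was not settled. Over all 3 lists, 5.03 Mb (18.9% of the merged length) was covered in every sample, 7.23 Mb (27.2%) in exactly 2 and 14.4 Mb (53.9%) in 1, so most of the length spanned by recurrent regions was not covered in every sample at once.

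Peak edges were compared where a pair of samples had exactly 1 peak each in a recurrent region. Regions called in that pair alone were left out. Start positions differed by a median of 124 bp between thymus 3 and 5 (7777 regions), 172 bp between thymus 2 and 3 (6286 regions) and 198 bp between thymus 2 and 5 (6736 regions). Peak centres differed by medians of 96.0 bp, 127 bp and 129 bp for the same pairs. A centre is the midpoint of start and end, so its difference cannot exceed the mean of the edge differences. Smaller values for centres than for edges are therefore no sign that the peaks are aligned at their centres. In these recurrent regions the peak of thymus 2 was the narrower in 80.6% of those compared with thymus 3 and in 87.1% of those compared with thymus 5. Thymus 3 had the narrower peak in 63.1% of the recurrent regions compared with thymus 5.

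Width separated the classes. Recurrent regions had a median merged width of 1190 bp, with quartiles of 817 and 1659 bp, and 6829 of them (62.6%) were over 1 kb. The medians were 419 bp for regions of 2 samples and 134 bp for regions of a single sample, of which only 57 (0.11%) were over 1 kb. Merged width grows with the number of peaks merged, and a wide peak meets others more readily than a narrow one, so part of this order is built into the classes. The widths of the unmerged peaks are free of the first of these. In thymus 2 the median peak was 270 bp wide in recurrent regions and 129 bp in single-sample regions. The same medians were 675 and 134 bp in thymus 3, and 898 and 137 bp in thymus 5. Single-sample peaks therefore had nearly the same width in all 3 lists (133 ± 4.04 bp, SD, n = 3), and the peaks in recurrent regions did not.

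**Figure D2:**
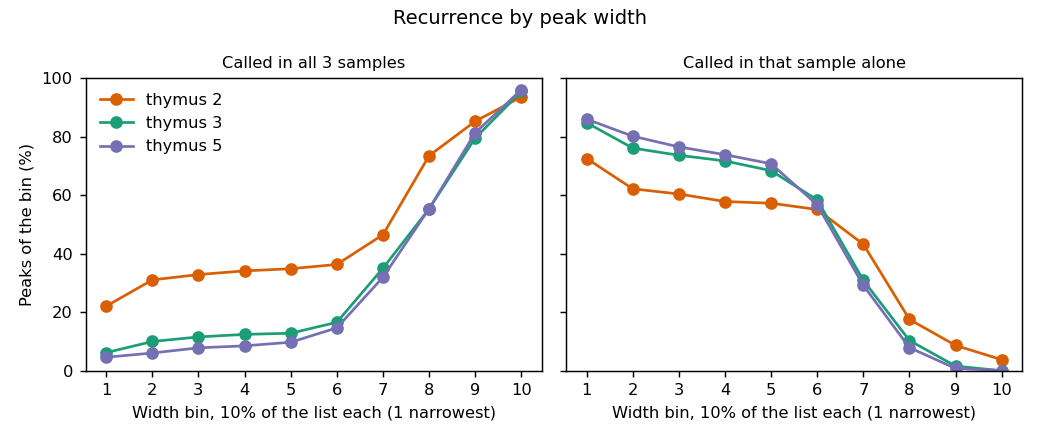
Peaks of each thymus list in 10 width bins of equal number, from the narrowest (1) to the widest (10), with y axes that give the percentage of each bin in regions called in all 3 samples (left) or in that sample alone (right). Each point is 1 bin of 1 list (3164 to 4034 peaks). In the widest bin 93.7 to 96.1% of peaks lie in recurrent regions and at most 3.8% in single-sample regions.

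Recurrence climbed with peak width within every list, as the plot by width bin shows. Among the widest 10% of peaks, 93.7% in thymus 2, 95.5% in thymus 3 and 96.1% in thymus 5 lay in recurrent regions. Among the narrowest 10% the shares were 22.1%, 6.22% and 4.64% for thymus 2, 3 and 5. Most of the climb came above the sixth of the 10 width bins, where the share was 36.4% in thymus 2, 16.6% in thymus 3 and 14.7% in thymus 5. At equal width the lists differed, as 57.8% of the peaks over 200 and up to 400 bp wide were in recurrent regions in thymus 2, 25% in thymus 3 and 17.9% in thymus 5. Every peak of a recurrent region counts here, with a mean of 1.42 per region in thymus 2, 1.24 in thymus 3 and 1.13 in thymus 5. A higher share in thymus 2 therefore does not show that its narrow peaks recur more reliably. Above 1600 bp a peak was almost never seen in 1 sample alone: this held for 9 of 388 such peaks in thymus 2, 0 of 1446 in thymus 3 and 0 of 2186 in thymus 5. Many narrow peaks sat at the lower width limit of their list, with 2232 peaks of 50 bp in thymus 2, 2394 of 53 bp in thymus 3 and 2028 of 54 bp in thymus 5. Of these, 75.7%, 88.0% and 89.6% were single-sample peaks in thymus 2, 3 and 5.

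Recurrent regions were more broken up in thymus 2. Its peaks covered a median of 41.5% of a recurrent region, against 77.4% for thymus 3 and 89.5% for thymus 5. The covered length per recurrent region had a median of 431 bp in thymus 2, 884 bp in thymus 3 and 1018 bp in thymus 5 (mean of the medians 778 ± 308 bp, SD, n = 3). Several peaks of the same sample lay in 3502 recurrent regions (32.1%) for thymus 2, 2242 (20.6%) for thymus 3 and 1254 (11.5%) for thymus 5. The gaps between such peaks had medians of 292 bp in thymus 2, 260 bp in thymus 3 and 248 bp in thymus 5. Each such gap is bridged by peaks of the other samples, so its length is limited by construction. No such gap inside a recurrent region was under 201 bp in any list, and what sets this limit was not tested.

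The widest recurrent regions are named here by the length covered in the sample that covered them least, and gene names are those that the study's own interval annotation on GRCz11 gives to the place. These names say which gene the interval was assigned to and not which gene the region controls. The region that ranked first lay on chromosome 2 from 32792919 to 32799943, in an interval assigned to LOC110438072. Its peaks covered 5669 bp in thymus 2, 7022 bp in thymus 3 and 6607 bp in thymus 5 (6433 ± 693 bp, SD, n = 3). Thymus 3 held it as 1 peak, thymus 5 as 2 and thymus 2 as 4.

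The gene zfp36l1a, which encodes a zinc finger protein of a family that binds AU-rich elements and promotes mRNA decay, was assigned both the second and the fourth region. The second, on chromosome 17 from 37841106 to 37846969, was covered over 4996 bp in thymus 2, 5789 bp in thymus 3 and 5558 bp in thymus 5. The fourth, from 37823339 to 37831672 on the same chromosome, was covered over 4882 bp in thymus 2, 8067 bp in thymus 3 and 7968 bp in thymus 5. The samples were thus close at the one and apart at the other, where thymus 2 was the low one. The third region, on chromosome 13 from 49440884 to 49447097, carried the name of irf2bp2a, whose human counterpart is a corepressor that binds IRF2, with 4949 bp covered in thymus 2, 5528 bp in thymus 3 and 6211 bp in thymus 5.

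The fifth was the widest region of the landscape, at 11385 bp, on chromosome 20 from 37625615 to 37636999, and carried the name of hivep2a. Mammalian HIVEP2 is a large zinc finger transcription factor. Its covered length was 4865 bp in 11 peaks in thymus 2, 10399 bp in 4 peaks in thymus 3 and 10265 bp in 3 peaks in thymus 5 (8510 ± 3157 bp, SD, n = 3). It was broken into several peaks in every sample, and into the most in thymus 2. The sixth, on chromosome 20 from 32220855 to 32227098, was assigned to armc2 and to sesn1, which encodes a sestrin, one of a family of stress-induced regulators of growth signalling. It was covered over 4829 bp in thymus 2, 5757 bp in thymus 3 and 6002 bp in thymus 5.

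The remaining names included a respiratory chain gene, a corepressor and a cell cycle gene. The seventh region, on chromosome 4 from 22466022 to 22473433, was assigned to ndufb2, a subunit of mitochondrial complex I, and was covered over 4617 bp in 6 peaks in thymus 2, 7061 bp in 2 peaks in thymus 3 and 7278 bp in 1 peak in thymus 5. The eighth, on chromosome 7 from 33715265 to 33720661, was assigned to tle3b, a corepressor of the Groucho family, with 4127 bp covered in thymus 2, 5396 bp in thymus 3 and 5299 bp in thymus 5. Thymus 2 had the lowest value at both. The ninth, on chromosome 25 from 17234416 to 17240075, was assigned to ccnd2a, a D-type cyclin that acts at entry into the cell cycle, with 4085 bp in thymus 2, 4964 bp in thymus 3 and 5261 bp in thymus 5. The tenth, on chromosome 16 from 27334663 to 27339695, overlapped no named interval and was covered over 3929 bp in thymus 2, 4369 bp in thymus 3 and 4684 bp in thymus 5. Thymus 2 had the least covered length in all 10 regions, by which they were in effect ranked.

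Among regions missing from 1 sample, the first by the same measure of covered length was called in thymus 3 and 5. It carried the name of nap1l1, a nucleosome assembly chaperone. It lay on chromosome 4 from 2372678 to 2375991 and was covered over 2863 bp in thymus 3, 2430 bp in thymus 5 and 0 bp in thymus 2. The counterparts of the other pairs were smaller. The first region of thymus 2 and 5 only, at pmp22a on chromosome 3 from 50827842 to 50828975, was covered over 1134 bp in thymus 2 and 764 bp in thymus 5. That of thymus 2 and 3 only, at b3gnt2b on chromosome 17 from 24136408 to 24137462, was covered over 682 bp in thymus 2 and 935 bp in thymus 3.

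Wide single-sample regions came mainly from thymus 2. It had 45 of the 57 that were over 1 kb, thymus 5 had 11 and thymus 3 had 1. The widest, of 5782 bp, lay on chromosome 16 from 15655258 to 15661039 in an interval assigned to the microRNA gene mir461, and was at the same time the widest peak of the thymus 2 list. The 100 kb around it held 14 peaks in thymus 2, 0 in thymus 3 and 6 in thymus 5, and no recurrent region. The widest single-sample region of thymus 3 (1453 bp, chromosome 9 from 9064961 to 9066413, with no named interval) and that of thymus 5 (1450 bp, chromosome 2 from 31672722 to 31674171, assigned to e2f5, an E2F family transcription factor) were about as wide as each other and far narrower.

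Spacing was measured from the end of a region to the start of the next of its class on the same sequence. Recurrent regions had a median gap of 40480.5 bp, with quartiles of 10330.25 and 131124 bp. The median gap was 45051 bp for regions of 2 samples, 11489 bp for regions of a single sample and 5358 bp over all regions. The value for single-sample regions pools 3 lists. Within a sample it was 56641.5 bp in thymus 2, 31419.5 bp in thymus 3 and 32836 bp in thymus 5. Gaps between recurrent regions depend on their number: the median was 22425 bp without thymus 2, 33004 bp without thymus 3 and 32808 bp without thymus 5. It was 166453 bp under the 50% rule and 64021 bp when only peaks of at least 200 bp were used.

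**Figure D3:**
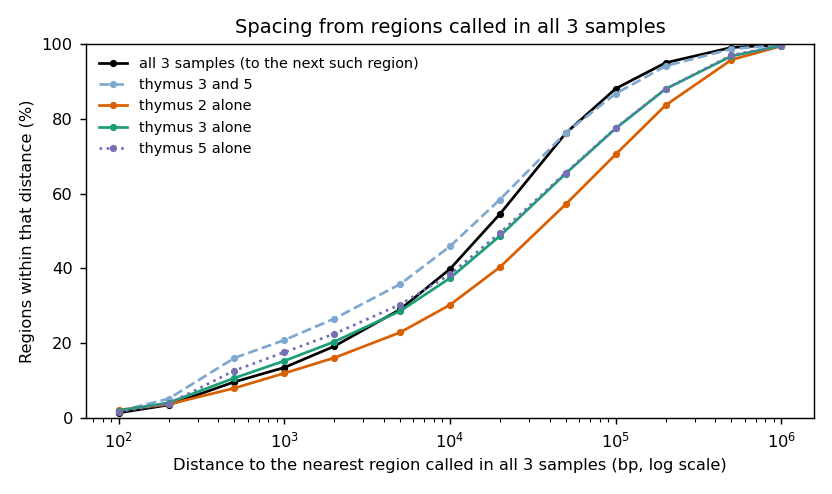
Cumulative percentage of regions on chromosomes 1 to 25 (y axis) whose nearest region called in all 3 samples lies within the distance on the x axis (bp, log scale), for recurrent regions themselves, for regions of thymus 3 and 5, and for the single-sample regions of each thymus sample. Each line covers the regions of 1 class. At 100000 bp the lines reach 88.1% for recurrent regions and 70.5 to 77.5% for single-sample regions.

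By median distance, regions of 2 samples lay closest to recurrent regions and single-sample regions farthest from them. On chromosomes 1 to 25 the nearest other recurrent region lay at a median of 16244.5 bp from a recurrent region. From regions of 2 samples the median distance to a recurrent region was shorter, at 12755 bp for thymus 3 and 5, 7545 bp for thymus 2 and 5 and 4967 bp for thymus 2 and 3. From single-sample regions it was longer, at 35517 bp in thymus 2, 21569 bp in thymus 3 and 20646 bp in thymus 5 (25911 ± 8331.8 bp, SD, n = 3). Thymus 2 again stood apart from the other samples, which were close to each other. Beyond 100 kb from any recurrent region lay 29.5% of the single-sample regions of thymus 2, 22.6% of thymus 3 and 22.5% of thymus 5, and 11.9% of recurrent regions lay that far from the next. For regions of 2 samples this share was 13.3% for thymus 3 and 5, 13.3% for thymus 2 and 5 and 9.07% for thymus 2 and 3, so the order by median did not hold at this distance. Near a recurrent region the order was different, because 12.0% of the single-sample regions of thymus 2, 15.3% of thymus 3 and 17.6% of thymus 5 lay within 1 kb of a recurrent region, as did 13.5% of recurrent regions themselves. Regions of 2 samples were the most often this near, at 20.9% for thymus 3 and 5, 27.3% for thymus 2 and 5 and 31.9% for thymus 2 and 3.

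Most regions were on the 25 chromosomes. These held 58425 regions (82.1%), of which 9428 (16.1%) were recurrent. Alternate locus sequences, which hold other haplotypes of parts of the chromosomes and so repeat them, carried 11625 regions (16.3%) on 862 sequences, and 11.4% of them were recurrent. Unplaced sequences carried 1110 regions, 13.7% of them recurrent. Recurrent regions were narrower off the chromosomes, with a median width of 1074 bp on alternate and 928.5 bp on unplaced sequences, against 1208 bp on the chromosomes. The share of peaks on alternate sequences was 12.5% in thymus 2, 16.0% in thymus 3 and 17.0% in thymus 5, so the lists also differed in this respect. The share of recurrent length in a list was 70.3% on average with chromosomes 1 to 25 alone.

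Chromosomes differed in how densely they carried recurrent regions. The number per Mb of the span between first and last peak was lowest on chromosome 4, at 4.87, and highest on chromosome 22, at 10.3, with a median of 7.24 over the 25 chromosomes. Chromosomes 3, 19 and 21 followed chromosome 22, at 9.50, 8.43 and 8.42 recurrent regions per Mb, and chromosomes 12 and 18 stood just above chromosome 4, at 5.05 and 5.28. Single-sample regions were spread more evenly, between 26.6 per Mb on chromosome 14 and 37.6 per Mb on chromosome 3, a range of 1.42-fold against 2.12-fold for recurrent regions. The recurrent share of all regions on a chromosome ranged between 12.8% on chromosome 4 and 19.0% on chromosome 22, with a median of 16.1%. That spread of 6.11 percentage points was 9.63 points without thymus 2 and 2.52 points under the 50% rule. The recurrent share itself differs between these settings, with 10908, 17123 and 3462 recurrent regions over all sequences. The points are therefore not like for like. The median gap between recurrent regions was shortest on chromosome 22, at 22913 bp, and longest on chromosome 12, at 71361 bp.

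**Figure D4:**
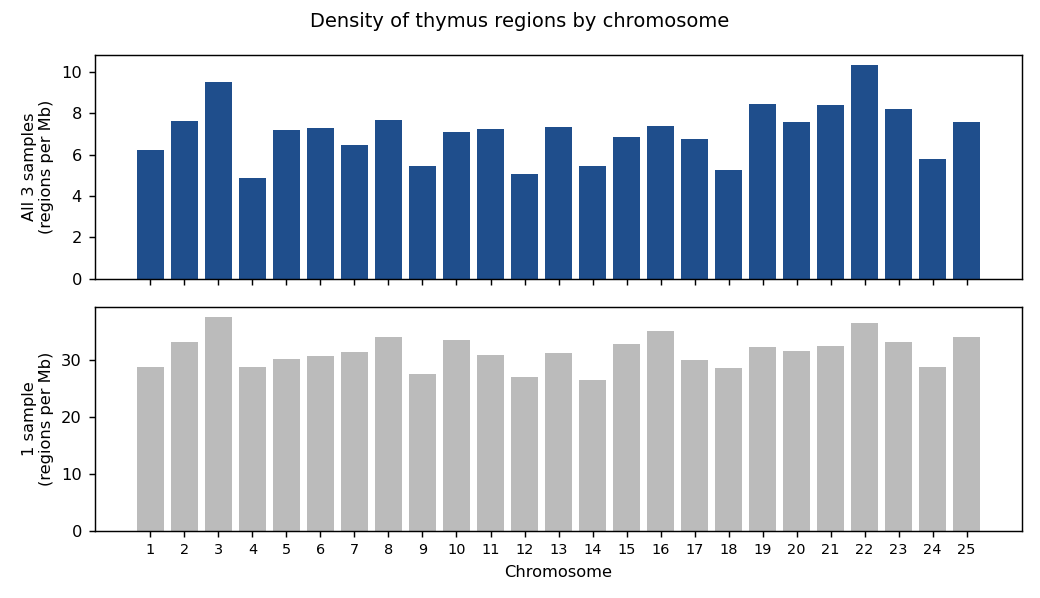
Recurrent regions (top) and single-sample regions (bottom) per Mb of the span between the first and last peak of each chromosome, for chromosomes 1 to 25 (x axis). Bars are counts over spans and have no error bars. Recurrent regions range between 4.87 per Mb on chromosome 4 and 10.3 per Mb on chromosome 22, single-sample regions between 26.6 and 37.6 per Mb.

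The samples ranked the chromosomes largely alike. The covered length per Mb was 4.44 kb in thymus 2, 7.10 kb in thymus 3 and 7.84 kb in thymus 5 on chromosome 4, the lowest value of each of the 3 lists. On chromosome 3 it was 8.29 kb in thymus 2, the highest of that list, 14.6 kb in thymus 3 and 16.0 kb in thymus 5. The highest values of thymus 3 and 5 were on chromosome 22, at 14.7 kb and 16.3 kb, where thymus 2 had 7.82 kb. Spearman's rho of this measure over the 25 chromosomes was 0.989 for thymus 3 and 5, 0.917 for thymus 2 and 5 and 0.915 for thymus 2 and 3, given as a description because chromosomes share libraries, gene content and base composition.

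Within the chromosomes at either extreme the regions were unevenly placed. On chromosome 4, 264 recurrent regions lay before the midpoint of the span and 116 beyond it, while single-sample regions numbered 1260 and 997. Zebrafish chromosome 4 is known for a long arm rich in repeats and heterochromatin. On chromosome 22, 305 recurrent regions lay before the midpoint and 99 beyond it, with 832 and 601 single-sample regions. The recurrent share was 22.7% before the midpoint of chromosome 22 and 12.6% beyond it. Across the 25 chromosomes, 27.3% of recurrent regions, 22.8% of regions in 2 samples and 23.4% of single-sample regions lay in the outermost 10% of the span at either end.

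The same unevenness appeared in windows of 1 Mb. The chromosomes made 1360 windows, of which 90 (6.62%) held no recurrent region, and the median was 6 per window with quartiles of 3 and 10. The densest window, on chromosome 22 from 2000001 to 3000000, held 65 recurrent regions, and its peaks covered 30107 bp in thymus 2, 60302 bp in thymus 3 and 73945 bp in thymus 5. The next lay on chromosome 21 from 45000001 to 46000000, with 53, and on chromosome 22 from 1000001 to 2000000, with 51. The first and the third of these windows adjoin each other.

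Windows rich in single-sample regions were partly shared and partly not. The richest window of thymus 2, on chromosome 10 from 16000001 to 17000000, had 57 single-sample regions of thymus 2, against 9 of thymus 3 and 6 of thymus 5, and 8 recurrent regions. The richest of thymus 3, on chromosome 10 from 28000001 to 29000000, had 49 of thymus 3, 45 of thymus 5 and 13 of thymus 2. The richest of thymus 5, on chromosome 16 from 49000001 to 50000000, had 46 of thymus 5, 41 of thymus 3 and 14 of thymus 2. The median window held 7 single-sample regions of thymus 2, 10 of thymus 3 and 10 of thymus 5, so the last 2 windows were above the median in every sample, and the first was above it in thymus 2 only. Over all windows, Spearman's rho of the single-sample counts was 0.687 for thymus 3 and 5, 0.419 for thymus 2 and 3 and 0.412 for thymus 2 and 5, a description of windows that share libraries and gene content.

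The landscape was examined at genes of the T lineage, through the GRCz11 intervals assigned to them. Not all of these genes are used by T cells alone, so they do not establish the identity of the sorted cells. The study drew these intervals from comparisons that included these same samples, and they are held here only in part, so they are not an independent choice of loci. Of 22 T lineage genes considered, 18 had an interval, and lat, cd4-1, rag1 and tcf7 were not analysed here. None of the 11 B cell, granulocyte and macrophage genes considered had one, so the part of other blood cells in the sort was not tested. Gene roles below are those known from mouse and human. At 17 of the 18 genes the intervals held a recurrent region, and over all named genes 947 of 1630 (58.1%) did. The T lineage intervals were much longer, with a median of 29.1 kb searched per gene against 1.001 kb, so the shares are not like for like. The lengths given for a gene are those covered by peaks over the whole of each region that touches its intervals, and regions can extend past an interval.

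The proximal kinases of T cell receptor signalling were marked in every sample. At lck, the Src family kinase that starts signalling from the T cell receptor, peaks covered 3829 bp in thymus 2, 5683 bp in thymus 3 and 5760 bp in thymus 5 (5091 ± 1093 bp, SD, n = 3). Its widest shared stretch, on chromosome 17 from 25379768 to 25384255, ranked 13 among all recurrent regions by the length covered in the lowest sample, and the samples differed little there, with 4195 bp in thymus 3, 4166 bp in thymus 5 and 3829 bp in thymus 2. Transgene copies of the lck promoter cannot be told apart from this locus in the lists. At zap70, the kinase recruited to the activated receptor, 5901 bp in thymus 2, 11305 bp in thymus 3 and 14237 bp in thymus 5 were covered, with 6 recurrent regions.

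The regions at cd8a, a chain of the CD8 co-receptor, had 870 bp covered in thymus 2, 5120 bp in thymus 3 and 4227 bp in thymus 5, in 2 recurrent regions and 4 regions of thymus 3 and 5 only. Those at themis, a regulator of thymocyte selection, had 1522 bp covered in thymus 2, 4267 bp in thymus 3 and 3207 bp in thymus 5. Thymus 3 was the highest at both. At ptprc, which encodes the phosphatase CD45, 5816 bp in thymus 2, 13247 bp in thymus 3 and 14865 bp in thymus 5 were covered, with 6 recurrent regions. The adaptor lcp2a and the GTPase rhoh were each searched over 1.001 kb only, and each held 1 recurrent region.

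**Figure D5:**
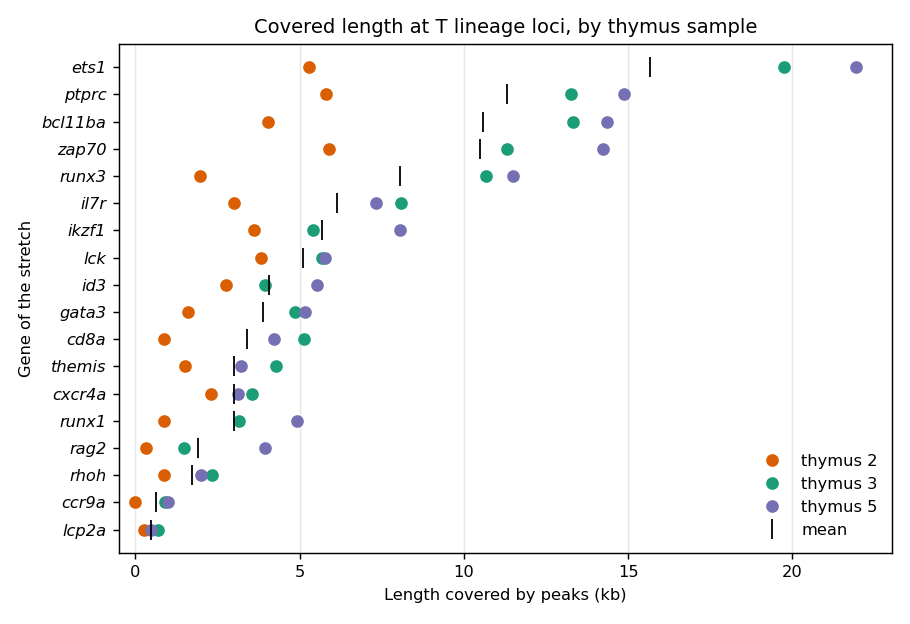
Length covered by peaks (x axis, kb) over the whole regions that touch the intervals assigned to 18 T lineage genes (y axis), with a point for each thymus sample and a bar at the mean of the 3. Genes are ordered by mean, and the intervals differ in length. Thymus 2 has the lowest value at each of the 18 genes, and thymus 5 exceeds thymus 3 at 12 of them. The whole lists have the same order, with 9.06 Mb covered in thymus 2, 16.5 Mb in thymus 3 and 18.4 Mb in thymus 5. How often this order holds at other named genes was not tested.

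At transcription factors of T lineage commitment, the summed length of peaks was larger in thymus 3 and 5 than in thymus 2. These lengths are sums over separate regions and not unbroken stretches of the mark. At bcl11ba, a counterpart of the commitment factor Bcl11b, peaks covered 4025 bp in thymus 2, 13328 bp in thymus 3 and 14369 bp in thymus 5, in 3 recurrent regions and 6 regions of thymus 3 and 5 only. At ets1, an ETS family factor with the largest mean of the 18 genes and 112.3 kb searched, they covered 5287 bp in thymus 2, 19759 bp in thymus 3 and 21948 bp in thymus 5, in 61 regions of which 9 were recurrent. Thymus 3 and 5 were close to each other at both genes, and thymus 2 was far below them. At gata3, required for early T cells and the CD4 lineage, 1596 bp in thymus 2, 4871 bp in thymus 3 and 5175 bp in thymus 5 were covered. The gene had 129.8 kb searched and 22 regions, of which 4 were recurrent and 15 were seen in a single sample. The study reports strong H3K27ac signal at gata3 in several tumors and not in normal thymus. Signal and tumor lists were not used here.

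The runx genes, whose products act in blood stem cells and in CD8 T cells, also stood low in thymus 2. At runx3 the covered length was 1976 bp in thymus 2, 10679 bp in thymus 3 and 11489 bp in thymus 5, and at runx1 it was 870, 3156 and 4934 bp for thymus 2, 3 and 5. The samples were closer at id3, which encodes an inhibitor of E proteins, with 2745 bp in thymus 2, 3955 bp in thymus 3 and 5525 bp in thymus 5, and 5 of its 10 regions were recurrent. At ikzf1, which encodes Ikaros, the values were 3596 bp in thymus 2, 5416 bp in thymus 3 and 8059 bp in thymus 5. At both genes thymus 5 was clearly the highest.

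Among genes of recombination and homing, rag2, a subunit of the V(D)J recombinase, had 308 bp covered in thymus 2, 1471 bp in thymus 3 and 3934 bp in thymus 5, so the samples differed widely. The interleukin 7 receptor gene il7r had 2994 bp covered in thymus 2, 8079 bp in thymus 3 and 7339 bp in thymus 5, with 5 recurrent regions. The chemokine receptor gene cxcr4a had 2316 bp in thymus 2, 3552 bp in thymus 3 and 3122 bp in thymus 5. The chemokine receptor gene ccr9a was the only one of the 18 without a recurrent region, as the region touching its 1.001 kb interval was covered over 887 bp in thymus 3, 987 bp in thymus 5 and 0 bp in thymus 2.

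Over the 18 genes together there were 277 distinct regions, of which 58 (20.9%) were recurrent, 59 (21.3%) were called in 2 samples and 160 in 1. Of all thymus regions, 15.3% were recurrent and 11.8% were called in 2 samples. The intervals came from comparisons that included these samples, so the 2 sets of shares are not like for like. Of the 59 regions, 50 were those of thymus 3 and 5. Over all thymus regions this pair also held most of those called in 2 samples, with 6214 of 8419. Peaks at the 18 genes summed to 44.8 kb in thymus 2, 117.8 kb in thymus 3 and 131.6 kb in thymus 5, which was 0.495%, 0.716% and 0.716% of the covered length of thymus 2, 3 and 5. The ratio of thymus 2 to thymus 5 was 0.340 at these genes and 0.493 over the whole lists. These ratios are not like for like either, because they rest on the same intervals. The shorter covered length of thymus 2 moved with the number, width and breaks of its peaks across the landscape, and the part of depth, of batch and of cell makeup in it was not tested.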

How the data were processed

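H3K27ac ChIP-seq peak lists of 3 thymus samples were analysed. Libraries were sequenced by the authors as single-end reads of 50 bp. According to the labels and methods, Bowtie2 placed the reads on GRCz11, SAMtools took out duplicates, and MACS2 2.1.1.2016030 called broad peaks in every library with whole cell lysate as background. The calls used a cutoff on the P value and not on a false discovery rate. How many single-sample regions are marginal calls was not tested. Only the sequence, start, end and name of each peak were read from the deposited lists, and no scores, counts or depth were used.

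Peaks were merged across the lists at an overlap of 1 bp or more, and any peak of a sample in a region counted as a call. Values are given per sample, with the SD over 3 samples. There is 1 group, so no test was run. Coordinates are 1-based on GRCz11. Named regions were the 10 recurrent regions with the largest length covered in the lowest sample and the first region of each pair by the same measure. The widest of each sample and windows of 1 Mb richest in a class were also named. Gene names came from the study's interval annotation; genome sequence was not used here. Members, lists and rules were chosen with earlier results of these data known. Alternatives were merging across gaps, a minimum cover, chromosomes only, a minimum width, equal numbers of peaks, and leaving out each sample. The merging was tested on simulated lists. Python 3.11.15, NumPy 2.4.6, pandas 2.3.3, SciPy 1.17.1 and matplotlib 3.10.9 were used.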

Additional observations from a re-analysis of the deposited data

How the results depend on the processing

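For 7 results, 10 of 35 values under alternatives that keep all samples moved by more than a yardstick. This was 1.5 times for the count and a spread between samples or pairs for the rest. For the single-sample share, the width and the gap it was the SD of a related measure of each list. These were the share of single-sample peaks (2.35 points), covered length per recurrent region (307.6 bp) and gaps between all peaks (2552.7 bp). For the Jaccard index it was the SD over pairs that share samples. The count of 10 depends on these choices. The values that did not move are no sign of stability throughout. The Jaccard index cannot change with the merging or calling rule, nor the chromosome spread (6.107 points) with chromosomes alone. The yardstick of that spread, 6.173 points, was the SD over samples of the same range for the share of peaks in recurrent regions. It is so wide that 2.522 to 7.974 points counted as unmoved. Merging across gaps of up to 500 bp gave a single-sample share of 66.95%, a median recurrent width of 1511 bp and a recurrent share of covered length of 75.51%. Asking for 50% cover gave 3462 recurrent regions, a single-sample share of 81.1%, a median gap of 166453 bp and a recurrent share of covered length of 31.65%. Peaks of at least 200 bp gave a single-sample share of 53.34% and a median gap of 64021 bp, and equal numbers of peaks gave a single-sample share of 69.3%.

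Leaving out each sample gave 11958 to 17123 recurrent regions, single-sample shares of 70.34 to 78.79%, Jaccard indices of 0.2736 to 0.4546, median widths of 848 to 957 bp, median gaps of 22425 to 33004 bp, recurrent shares of covered length of 67.95 to 81.22% and a chromosome spread of 7.085 to 9.626 points. With a sample left out, the class asks for both others in place of 3, so counts rise and gaps shrink by construction. The chromosome spread then rests on another recurrent share, so its points are not like for like. No paired analysis was possible because 1 group was described and no result comes from a test. Depth is not known, so a region missing from a list cannot be called unmarked.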
